A study of Homo sapiens with 6 samples.

Results

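The AP-1 and immediate early transcription factors described here were 10 genes, FOS, FOSB, FOSL1, FOSL2, JUN, JUNB, JUND, ATF3, EGR1 and IER2. They were chosen by name and matched by gene symbol, and all 10 were found among the 17448 genes listed. All 10 were also among the 12951 genes that passed the filter on low counts. RNA-seq compared HCC2814 cells, a human lung squamous cell carcinoma (LUSC) line, in the absence and presence of a CRISPR guide against MLST8. MLST8 is a subunit of the mTOR complexes and is needed for the stability of mTORC2, and the comparison asked what loss of mTORC2 does to the transcriptome. Both groups were grown with 10% serum, and both received a guide and were then selected with antibiotic. GEO's labels give 48 to 72 hours for the guide. The study's methods give those hours for collecting virus from packaging cells, with a shorter infection of the tumor cells before selection. The 3 WT samples carried a control guide that targets no gene, and the 3 MLST8-KO samples carried a guide against MLST8. The study's western blot of this line lists several numbered controls and MLST8 knockouts. Whether the 3 replicates of a group differ in guide was not established here. Guides for human lines were cloned in lentiCRISPR v2, and no isolation of single clones was described for this line, so each sample may hold cells with different edits. The replicates came from separate experiments.

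AP-1 is a dimer of basic leucine zipper (bZIP) proteins. FOS proteins bind DNA as partners of JUN proteins, whereas JUN proteins can also pair with each other and with ATF proteins. Many of these genes are immediate early genes: growth factors, serum or stress raise their transcription within minutes through MAP kinases acting on factors already bound at their promoters, and most of the mRNAs are short-lived. In squamous epithelia AP-1 is known for its part in the control of growth, differentiation and invasion.

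MLST8 itself was at 58.0, 56.9 and 60.7 CPM (counts scaled to a common library size after TMM scaling) in WT replicates 1, 2 and 3, and at 25.5, 38.9 and 25.7 CPM in the MLST8-KO replicates. Every MLST8-KO sample was below every WT sample, as the labels have it, with a log2 fold change of -0.96 (adjusted p = 0.00339, edgeR). Estimated counts summed to between 14381673 and 15744154 per sample. No pair of replicates in a group was as close as sampling noise alone would make it (chi-square of 6.98 to 26.5 per gene). Among all genes tested, 16.3% were higher and 15.7% lower in MLST8-KO cells at an adjusted p under 0.05. Epithelial and squamous markers (KRT5, KRT14, TP63 and 7 others) summed to 10626 to 16320 CPM in WT and 18931 to 21440 CPM in MLST8-KO samples, with 6 of 10 higher and KRT8 and KRT18 lower. Markers of fibroblasts (31.7 to 37.4 CPM in sum), immune cells (40.8 to 78.6) and endothelium (1.92 to 3.58) were far below the epithelial sum in all samples. COL1A1 alone was at 30.6 to 33.85 CPM and CD68 alone at 40.3 to 77.8 CPM, most of the fibroblast and immune sums. CD68 (log2 fold change -0.45, adjusted p = 0.0413, edgeR) and PECAM1 (-1.34, adjusted p = 0.0180, edgeR) were lower in MLST8-KO cells. Heat shock genes, which respond to handling and stress as immediate early genes do, summed to 6048 to 7371 CPM in WT and 6560 to 7755 CPM in MLST8-KO samples, and of 8 tested HSPB1 was higher and BAG3 lower (-0.58, adjusted p = 0.0057, edgeR). MLST8-KO replicate 1 stood apart in liver transcripts (ALB, AFP, FGA, FGB, TTR and APOB), which summed to 234 CPM there and to at most 6.50 CPM elsewhere, so results without it are given where they differ. The part of these shifts in the results on AP-1 was not tested. In bulk RNA, fewer cells that express a gene and less RNA per cell cannot be told apart.

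Stretches of 5 promoters are shown because they carry letters known as sites of factors that act on AP-1 and immediate early genes. The windows searched ran from 250 bases before to 50 after the start of each gene in RefSeq (GRCh38.p14). Of the 10 genes 9 matched an entry, ATF3 with 2 starts, and FOSL1 had none and was not searched. Each stretch below runs 5′ to 3′ on the strand of the gene over the 100 bases before the start, except for EGR1, where it runs from base -150 to base -51. Capitals mark TGACGT (the core of a cAMP response element, bound by ATF and CREB proteins) or its complement ACGTCA, TGACATCA (the AP-1 variant known from the JUN promoter) and, in EGR1, the CArG boxes to which SRF binds.
FOSB (chr19:45467896-45467995, plus strand): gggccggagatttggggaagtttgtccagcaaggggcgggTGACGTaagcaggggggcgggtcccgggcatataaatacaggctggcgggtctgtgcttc
FOS (chr14:75278728-75278827, plus strand): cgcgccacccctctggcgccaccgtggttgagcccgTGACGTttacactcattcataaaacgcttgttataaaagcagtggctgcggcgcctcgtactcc
FOSL2 (chr2:28392758-28392857, plus strand): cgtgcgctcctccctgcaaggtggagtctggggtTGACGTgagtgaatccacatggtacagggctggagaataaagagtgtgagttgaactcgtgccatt
JUN (chr1:58784048-58784147, minus strand): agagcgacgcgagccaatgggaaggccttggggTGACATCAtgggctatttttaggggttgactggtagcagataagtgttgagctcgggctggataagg
EGR1 (chr5:138465329-138465428, plus strand): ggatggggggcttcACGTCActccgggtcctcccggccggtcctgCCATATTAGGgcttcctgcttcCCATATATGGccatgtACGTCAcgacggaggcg

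TGACGT began at base -60 of FOSB, -64 of FOS and -66 of FOSL2, and TGACATCA at base -67 of JUN. Searched on both strands, TGACGT was in the windows of 5 of the 9 genes (EGR1, FOS, FOSB, FOSL2 and JUND) and in 7.98% of all 35116 promoters. In JUND the motif at base -200 overlapped its own complement at base -198. TGACATCA was in JUN and in ATF3 (2.61% of all promoters), and the canonical AP-1 site TGAGTCA was in FOSL2 alone, 5 bases after the start (4.95%). Within these windows EGR1 alone of the 9 had CArG boxes (1.29% of all promoters) and a site for EGR proteins, GCGNGGGCG (9.43%). Bases farther from the start were not searched, so a motif missing from a window may still lie outside it. The CArG boxes lay at bases -105 to -96 and -83 to -74 of EGR1 and overlapped no other motif searched. These matches are letters in a window and no measure of binding. Genes with TGACGT were found both among those that fell (FOSB) and among those that did not pass the test (EGR1, FOS, FOSL2 and JUND).

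FOSB, FOSL1, JUN and IER2 fell in MLST8-KO cells, and none of the 10 genes rose. The falls ranged from 1.48-fold for JUN to 2.93-fold for FOSB. In these 4 genes every MLST8-KO sample was below every WT sample, and in the other 6 the groups overlapped. The 4 of 10 lower genes (40%) stood beside 15.7% of all genes tested, and the 0 higher genes beside 16.3%. Groups that do not overlap with MLST8-KO below were found in 24.2% of all genes tested, and with MLST8-KO above in 24.8%. The median log2 fold change over the 10 genes was -0.44, against 0.00 over all genes tested, and 8 of the 10 values were negative.

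**Figure D1:**
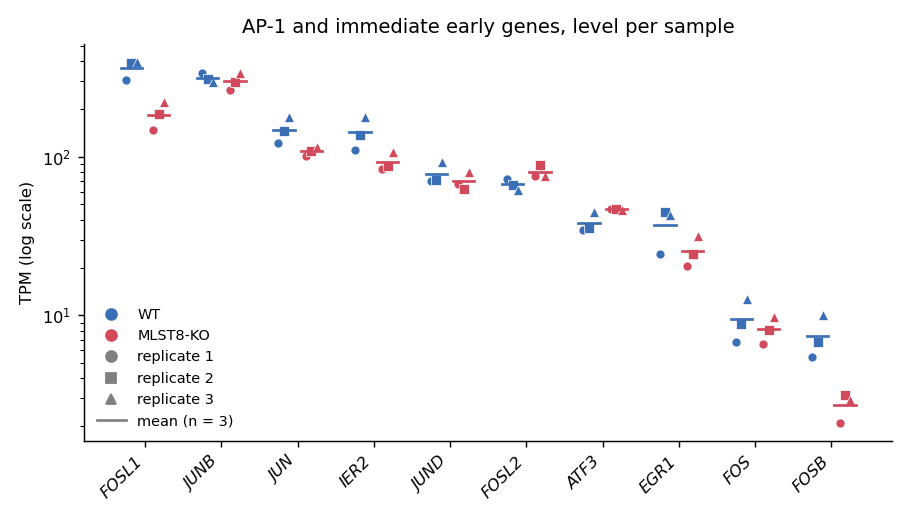
TPM (transcript level divided by gene length and depth, log axis) of the 10 genes in each sample, ordered by the WT mean; symbols mark replicates 1 to 3 of WT (blue) and MLST8-KO (red), and lines are means (n = 3). FOSL1 and FOSB show WT and MLST8-KO points well apart, whereas the points of JUNB and FOS overlap.

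Of the FOS family, FOSL1 was the most abundant and was among the genes that fell. FOSL1 (Entrez gene 8061; GRCh38 chromosome 11, 65892049 to 65900573, minus strand, 4 exons) encodes FRA1, a FOS protein without a transactivation domain that is often high in carcinoma cells. It was at 261, 337 and 356 CPM in WT replicates 1, 2 and 3 and at 119, 147 and 185 CPM in MLST8-KO replicates 1, 2 and 3. All MLST8-KO values lay below the lowest WT value. The log2 fold change was -1.08 (95% confidence interval -1.43 to -0.73, adjusted p = 0.00306, edgeR's quasi-likelihood test). It stayed past the threshold in all 14 alternative settings, with log2 fold changes of -1.26 to -0.94 when a sample was left out.

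FOSB (Entrez gene 2354; chromosome 19, 45467995 to 45475179, plus strand, 4 exons) encodes a FOS protein with a strong serum response. Its CPM were 10.7, 13.5 and 20.9 in WT replicates 1 to 3 and 3.81, 5.81 and 5.70 in MLST8-KO replicates 1 to 3. FOSB had the largest change of the 10 genes and rested on few reads, with 59 to 289 counts per sample. The WT values ran over a range about as wide as the difference of the group means, and the groups did not overlap. In the fit across all genes its log2 fold change was -1.55 (95% confidence interval -2.11 to -0.99, adjusted p = 0.00369, edgeR). It was also lower in all 14 alternatives, and ranged from -1.75 to -1.25 when a sample was left out. FOSB lies within the span of ERCC1 on the opposite strand, with 0 shared exon bases.

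FOS (Entrez gene 2353; chromosome 14, 75278774 to 75282230, plus strand, 4 exons), the founding member and a textbook serum response gene, was at 7.50, 9.85 and 14.6 CPM in WT samples. MLST8-KO samples had 6.90, 8.22 and 10.6 CPM of FOS. The MLST8-KO values lay within or just under the WT range. Its log2 fold change of -0.31 had an interval of -0.85 to 0.22 (adjusted p = 0.336, edgeR), so a fall of the size seen for JUN lies inside that interval. FOS passed the threshold in none of the 14 alternatives.

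FOSL2 (Entrez gene 2355; chromosome 2, 28392448 to 28417312, plus strand, 4 exons) encodes FRA2, the other FOS protein without a transactivation domain. WT samples had 246, 221 and 205 CPM and MLST8-KO samples 235, 269 and 242 CPM of FOSL2. The groups overlapped on this scale, since WT replicate 1 exceeded MLST8-KO replicates 1 and 3. With a log2 fold change of 0.15, FOSL2 did not pass the test (-0.05 to 0.35, adjusted p = 0.223, edgeR). In TPM every MLST8-KO sample was above every WT sample, and FOSL2 passed the threshold in none of the 14 alternatives, TPM included.

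Of the JUN family, JUN was lower in MLST8-KO cells and JUNB and JUND did not pass the test. JUN (Entrez gene 3725; chromosome 1, 58780788 to 58784327, minus strand, 1 exon) encodes c-Jun, the JUN protein with the strongest transactivation. Its values were 216, 255 and 325 CPM in WT replicates 1 to 3 and 167, 175 and 197 CPM in the MLST8-KO replicates. The lowest WT value was close above the highest MLST8-KO value. The log2 fold change was -0.56 (95% confidence interval -0.86 to -0.26, adjusted p = 0.0126, edgeR). JUN was no longer past the threshold without MLST8-KO replicate 1 (-0.51, adjusted p = 0.0583, edgeR) or replicate 2 (-0.54, adjusted p = 0.0556, edgeR).

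JUNB (Entrez gene 3726; chromosome 19, 12791496 to 12793315, plus strand, 1 exon), often an antagonist of c-Jun in growth control, was at 309, 284 and 282 CPM in WT and 229, 249 and 302 CPM in MLST8-KO samples. Here MLST8-KO replicate 3 lay among the WT samples. JUNB had a log2 fold change of -0.17 (-0.40 to 0.07, adjusted p = 0.239, edgeR), and without MLST8-KO replicate 3 it was -0.29 (adjusted p = 0.0493, edgeR). JUNB shares 259 bases (14.2%) of its exons with HOOK2 on the opposite strand, which was at 313 to 388 counts per sample, and whether counting used the strand is not given in the sources used here.

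JUND (Entrez gene 3727; chromosome 19, 18279760 to 18281622, minus strand, 1 exon), the JUN gene that is least dependent on stimulation, was at 70.6, 71.1 and 96.2 CPM in WT samples. In MLST8-KO samples it was at 63.0, 57.8 and 78.0 CPM. Replicate 3 was the highest of each group, and the groups overlapped. The log2 fold change was -0.26 (-0.57 to 0.06, adjusted p = 0.183, edgeR). JUND passed the threshold in 1 of the 14 alternatives, the fit with the replicate number as a block (-0.26, adjusted p = 0.0352, edgeR).

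**Figure D2:**
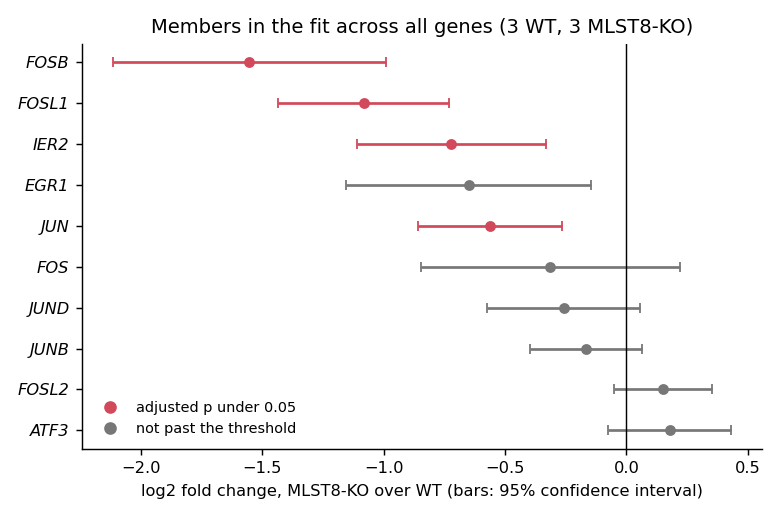
Log2 fold changes (MLST8-KO over WT) of the 10 genes in the edgeR fit across all genes, with 95% confidence intervals as bars; red marks an adjusted p under 0.05. The intervals of FOSB, FOSL1, IER2, EGR1 and JUN lie below 0, and EGR1 is grey because its adjusted p was 0.0514.

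Outside the FOS and JUN families, IER2 fell, EGR1 was close to the threshold and ATF3 did not pass. IER2 (Entrez gene 9592; chromosome 19, 13150415 to 13154908, plus strand, 1 exon in its principal transcript) encodes a small nuclear protein that rises early after serum. It was at 116, 145 and 196 CPM in WT replicates 1 to 3 and at 82.3, 84.6 and 109.8 CPM in the MLST8-KO replicates. The groups did not overlap, with WT replicate 1 just above MLST8-KO replicate 3. IER2 had a log2 fold change of -0.72 (95% confidence interval -1.11 to -0.33, adjusted p = 0.0132, edgeR). As for JUN, the call was lost without MLST8-KO replicate 1 (-0.65, adjusted p = 0.0600, edgeR) and without MLST8-KO replicate 2 (-0.66, adjusted p = 0.0631, edgeR). An antisense RNA, AC011446.2, covers 946 bases (30.8%) of the exons of IER2, and its own level was not analysed here.

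EGR1 (Entrez gene 1958; chromosome 5, 138465490 to 138469315, plus strand, 2 exons), a zinc finger factor induced through SRF and the ERK kinases, was at 40.4, 74.2 and 73.3 CPM in WT samples. Its MLST8-KO values were 31.7, 36.9 and 51.1 CPM. WT replicate 1 lay well under the other WT samples and below MLST8-KO replicate 3, so the groups overlapped. EGR1 had a log2 fold change of -0.65, similar in size to that of IER2, with a wider interval (-1.15 to -0.14, adjusted p = 0.0514, edgeR). Without WT replicate 1 it was -0.89 (adjusted p = 0.000677, edgeR). Without MLST8-KO replicate 1 it was -0.51 (adjusted p = 0.174, edgeR), and without WT replicate 2 it was -0.51 (adjusted p = 0.178, edgeR). In 4 of the 14 alternatives EGR1 was past the threshold, and 2 of these were among the 6 fits without 1 sample.

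ATF3 (Entrez gene 467; chromosome 1, 212565334 to 212620777, plus strand, 4 exons), a stress-induced bZIP factor that pairs with JUN proteins, was at 37.5, 39.1 and 50.8 CPM in WT and 47.8, 47.0 and 49.2 CPM in MLST8-KO samples. The MLST8-KO samples lay close together, in CPM above WT replicates 1 and 2 and below WT replicate 3. In TPM every MLST8-KO sample (46.4 to 47.0) was above every WT sample (34.5 to 44.9). The log2 fold change was 0.18 (-0.08 to 0.43, adjusted p = 0.251, edgeR), and without WT replicate 3 it was 0.32 (adjusted p = 0.0190, edgeR).

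The replicates of each group stood in a similar order across most of these genes. WT replicate 1 had the lowest CPM of the WT samples in 8 of the 10 genes, against 37.9% of all genes tested, and WT replicate 3 had the highest in 7 of 10 (39.5%). In the MLST8-KO group replicate 1 was the lowest in 8 of 10 genes (30.6% of all genes tested) and replicate 3 the highest in 8 of 10 (34.8%). FOS, FOSB, FOSL1, JUN, JUND, ATF3 and IER2 were lowest in WT replicate 1 and highest in WT replicate 3, whereas FOSL2 and JUNB had the opposite order in WT samples. JUN and IER2 had the most similar profiles of any pair among the 10: the root mean square difference of their centred log2 CPM over the 6 samples was 0.11, and JUN ranked 34 among the 11187 genes with a mean of at least 50 counts by closeness to IER2. EGR1 was also closest to IER2 (0.19, rank 14), and FOSB to FOSL1 (0.29, rank 57). Profiles here and below span both groups and so carry the difference between them, and genes with like fold changes tend to be close. Each of the 10 genes had genes outside the group nearer than any gene of it: IER2 ranked 272 by closeness to JUN and 122 to FOSL1, JUND ranked 74 to FOS, and the nearest of the group ranked 1660 for JUND, 4118 for JUNB, 4281 for ATF3 and 5893 for FOSL2.

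**Figure D3:**
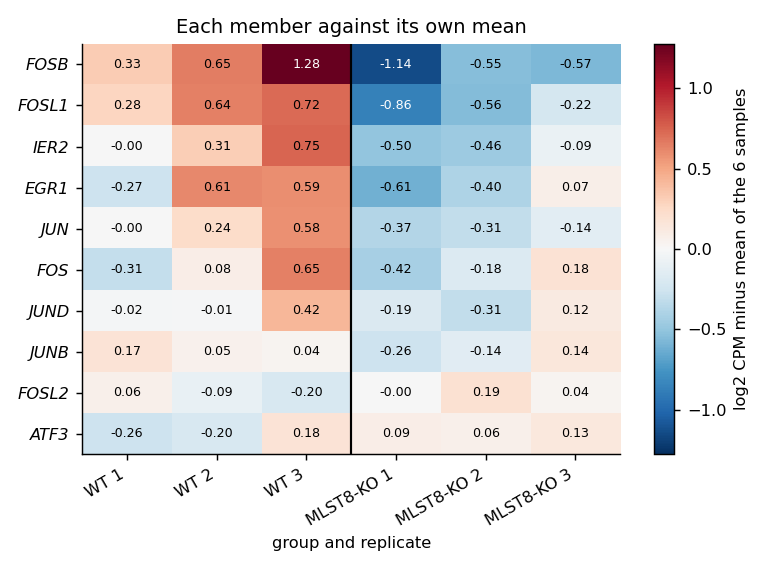
Log2 CPM of each gene minus its mean over the 6 samples, with the value printed in each cell; rows are ordered by log2 fold change and the line parts WT from MLST8-KO. FOSB runs from 1.28 in WT replicate 3 to -1.14 in MLST8-KO replicate 1, and within each group the values of most genes are lower in replicate 1 than in replicate 3.

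Over the same 11187 genes, the gene with the profile most like FOSB was GDF15 (difference 0.12) and that most like FOSL1 was HMGA2 (0.06). PDXK was nearest to JUN (0.03), CAMK2N1 to IER2 (0.05) and NRP2 to EGR1 (0.15). LOXL1 was nearest to FOS (0.05), MAPK3 to JUNB (0.03), ATP2B4 to FOSL2 (0.03) and CDK11B to ATF3 (0.03). A gene that varies little is close to many others, so the differences are best read within a gene and not between genes: the profile of FOSB itself had a root mean square of 0.82 and that of FOSL2 one of 0.12.

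Levels between genes were compared in TPM, which is divided by gene length. In WT cells FOSL1 (365 ± 51.0 TPM, SD, n = 3) and JUNB (313 ± 21.1) were the most abundant and overlapped in range. JUN (148 ± 27.8) and IER2 (142 ± 34.5) followed and also overlapped, as did JUND (77.9 ± 12.5) with FOSL2 (66.9 ± 5.67) and ATF3 (38.3 ± 5.77) with EGR1 (37.3 ± 11.3). FOS (9.43 ± 3.01) and FOSB (7.42 ± 2.38) were the lowest. The levels of WT cells thus fell in 5 pairs, with the ranges apart from pair to pair.

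In MLST8-KO cells the order differed at the top and in the middle. JUNB came first with 299.9 ± 37.3 TPM, and FOSL1 followed with 185 ± 37.8 and a range apart from that of JUNB. JUN (109 ± 6.90), IER2 (93.1 ± 13.0), FOSL2 (80.0 ± 7.77) and JUND (70.1 ± 9.08) came next, each overlapping its neighbour. ATF3 (46.6 ± 0.35), EGR1 (25.6 ± 5.75), FOS (8.18 ± 1.60) and FOSB (2.72 ± 0.56) were each apart from the next.

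The FOS family held less FOSL1 in MLST8-KO cells and so differed in make-up. Its summed level was 391, 475 and 480 TPM in WT samples and 231, 286 and 311 TPM in MLST8-KO samples. FOSL1 made up 78.3%, 82.7% and 82.5% of that sum in WT samples and 63.5%, 64.9% and 71.5% in MLST8-KO samples, without overlap. FOSL2 made up 15.1% ± 3.07 of the WT sum and 29.4% ± 4.44 of the MLST8-KO sum (SD, n = 3), while its own level did not pass the test. The ratio of FOSL1 to FOSL2 was 4.20, 5.91 and 6.44 in WT samples and 1.94, 2.08 and 2.94 in MLST8-KO samples. FOS and FOSB together were a small part of the family, at 2.08% ± 0.49 and 1.64% ± 0.40 of the WT sum and 2.95% ± 0.18 and 0.98% ± 0.11 of the MLST8-KO sum. These shares are described with no test, as they are built from the levels tested above.

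In the JUN family the groups overlapped in summed level. The sum was 539 ± 21.9 TPM in WT and 479 ± 51.7 TPM in MLST8-KO samples, and MLST8-KO replicate 3 (535) exceeded WT replicates 1 (529) and 2 (525). JUNB made up 58.2% ± 5.72 of the sum in WT and 62.6% ± 1.29 in MLST8-KO samples, and JUN 27.4% ± 4.18 and 22.8% ± 1.02. The share of JUND was 14.4% ± 1.70 in WT and 14.6% ± 1.03 in MLST8-KO samples.

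**Figure D4:**
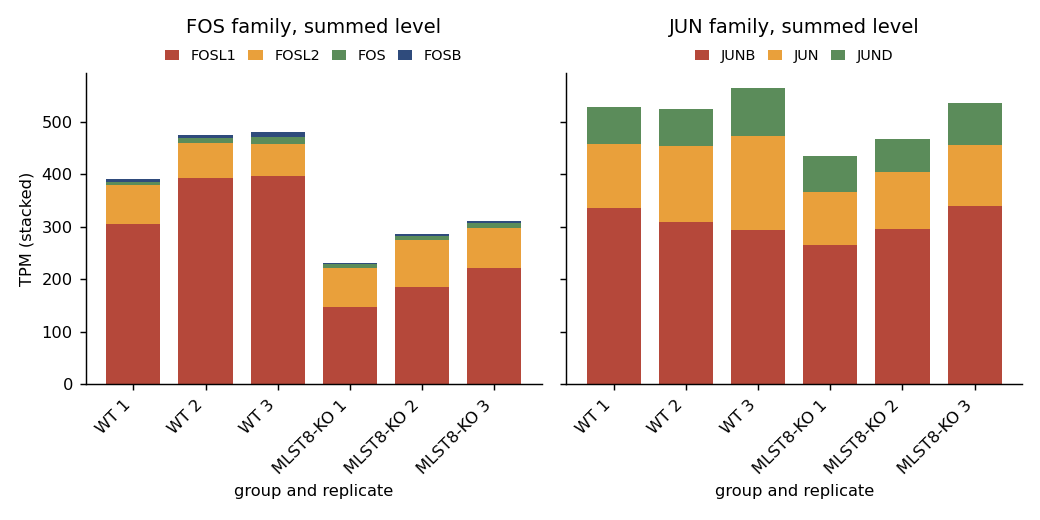
Stacked TPM of the FOS family (left) and the JUN family (right) in each of the 6 samples, on 1 axis that starts at 0. The FOSL1 block shrinks from 306 to 396 TPM in WT to 147 to 222 TPM in MLST8-KO samples while the FOSL2 block stays between 61.5 and 89.0 TPM.

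Other genes of the pathway were taken from 4 lists. Of the other immediate early genes, 30 of 32 were tested. Of these, 11 were lower (36.7%), 1 was higher (3.33%) and 18 did not pass, with a median log2 fold change of -0.21. Among all genes tested 15.7% were lower and 16.3% higher, with a median of 0.00. HBEGF, a growth factor that activates the EGF receptor, was lower by the most of this list, at 109 ± 32.9 CPM in WT and 33.2 ± 6.80 in MLST8-KO samples (SD, n = 3; log2 fold change -1.71, adjusted p = 0.00281, edgeR). CSRNP1, a nuclear protein (-1.30, adjusted p = 0.00281), TRIB1, a pseudokinase (-1.02, adjusted p = 0.00397), and PHLDA1 (-0.83, adjusted p = 0.00412, all by edgeR) were the next lower genes with at least 50 counts. NR4A1, DUSP1, RHOB, MCL1, IER3, PPP1R15A and NR4A3 also fell, with log2 fold changes of -0.44 to -1.50. NR4A3 had the largest of these changes and rested on few reads, with 14 to 74 counts per sample. In TPM the groups overlapped for NR4A1 and PPP1R15A. BTG2, an antiproliferative gene and p53 target, was the gene of the list that rose (0.73, adjusted p = 0.0124, edgeR). No gene of the list was called higher when MLST8-KO replicate 1, MLST8-KO replicate 2 or WT replicate 2 was left out. The lower genes thus included genes for a ligand (HBEGF), a phosphatase (DUSP1) and a GTPase (RHOB) as well as transcription factors.

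Among the other bZIP genes, the possible partners of AP-1, most did not pass the test. Of 25 listed, 22 were tested; 4 were lower (18.2%) and 1 higher (4.55%), with a median of -0.01. The share of lower genes was near the 15.7% of all genes tested, and the share of higher genes was under the 16.3%. MAFK (-0.37, adjusted p = 0.0175), ATF5 (-0.35, adjusted p = 0.0247), NFE2L1 (-0.25, adjusted p = 0.0302) and ATF1 (-0.25, adjusted p = 0.0430, all by edgeR) were the lower genes.

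Among kinases and factors upstream of AP-1, all 25 listed genes were tested, and 5 were lower (20%) and 0 higher, with a median of -0.05. The share of lower genes was near the 15.7% of all genes tested, so the count of lower genes says nothing particular of this list. The 0 higher genes stood beside 16.3% of all genes tested. MAP2K1 and MAP2K2, which encode the kinases MEK1 and MEK2 of the ERK pathway, were both lower (-0.49 each, adjusted p = 0.0114 and 0.00795, edgeR). MAPK14, which encodes p38 alpha, was at -0.30 (adjusted p = 0.0423, edgeR), and MAP2K4, a kinase of the JNK and p38 pathways, at -0.25 (adjusted p = 0.0293, edgeR). FBXW7, part of a ubiquitin ligase that degrades c-Jun, was at -0.35 (adjusted p = 0.0327, edgeR). Levels of mRNA say nothing of the activity of these kinases, which was not measured.

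Genes often named as AP-1 targets changed in both directions. Of 36 listed, 33 were tested. Of these, 11 were lower (33.3%), 8 higher (24.2%) and 14 did not pass, and the median was 0.09. Among all genes tested 15.7% were lower and 16.3% higher. The lower genes were led by IL1B (39.9 ± 16.7 CPM in WT and 7.53 ± 1.68 in MLST8-KO samples, SD, n = 3; log2 fold change -2.40, adjusted p = 0.00281, edgeR) and IL1A (-1.23, adjusted p = 0.00369, edgeR), both cytokines of the interleukin-1 family. CXCL8, a chemokine (-0.91, adjusted p = 0.0104, edgeR), and PLAU, the protease urokinase (-0.91, adjusted p = 0.00283, edgeR), came next. The higher genes were led by the collagenase MMP13 (1.17, adjusted p = 0.00736, edgeR), which was at 6.54 ± 2.32 CPM in WT and 14.8 ± 3.18 in MLST8-KO samples, and by the keratin KRT16 (0.81, adjusted p = 0.00941, edgeR). MMP1 (0.76, adjusted p = 0.0107, edgeR), a collagenase too, and LAMA3, a laminin chain of the epithelial basement membrane (0.76, adjusted p = 0.00985, edgeR), followed. Cytokine genes were called in both directions, since IL6, named after its value was seen, was higher (6.33 ± 0.51 CPM in WT and 9.61 ± 1.07 in MLST8-KO samples, SD, n = 3; log2 fold change 0.60, adjusted p = 0.0145, edgeR).

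**Figure D5:**
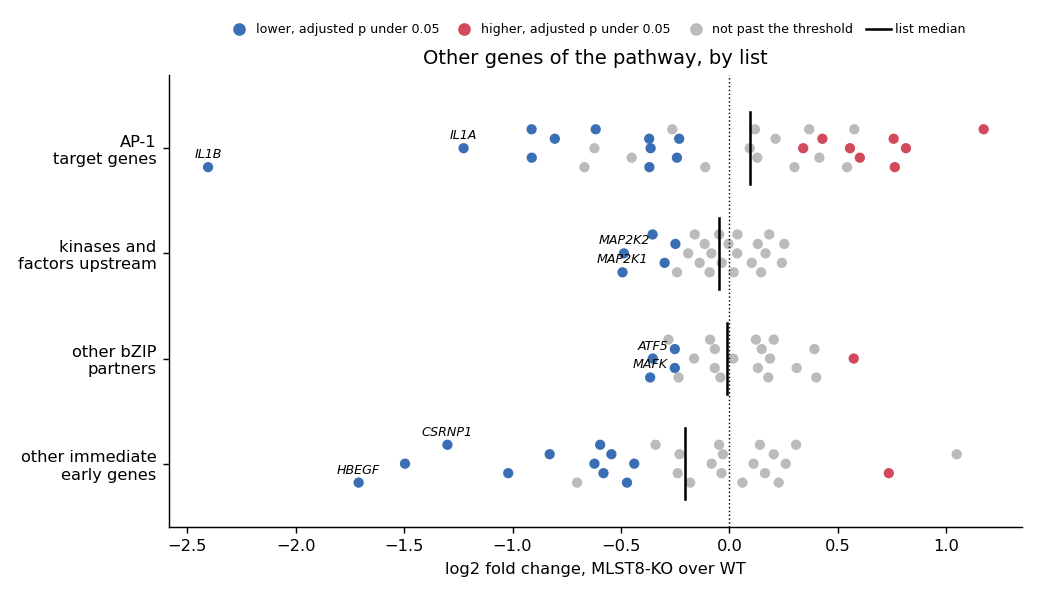
Log2 fold changes (MLST8-KO over WT) of the tested genes of each list, 1 point per gene and the names of the 2 lower genes per list with the largest changes at a mean of 50 counts or more, with lower (blue) and higher (red) genes at an adjusted p under 0.05 and the list median as a black line. The medians lie between -0.21 for the other immediate early genes and 0.09 for the AP-1 targets; the vertical place of a point within a list carries no value.

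Counts by list moved with the libraries used. Without MLST8-KO replicate 1, the library with liver transcripts, the lower genes were 2 of the 10 AP-1 and immediate early factors (FOSB and FOSL1), 8 of the other immediate early genes, 0 of the bZIP partners, 1 of the upstream genes and 5 of the targets. The higher genes in that fit were 0 of the 10 factors, 0 of the other immediate early genes and 1 of the bZIP partners. They were 0 of the upstream genes and 5 of the targets, against 8 targets with all 6 samples. Over all genes that fit called 979 higher and 850 lower genes, against 2116 and 2030 with all 6 samples.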

How the data were processed

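RNA was taken from 3 WT and 3 MLST8-KO samples of HCC2814 cells. GEO's labels name an RNAqueous kit and the study's methods a Direct-zol kit. BGI made polyA-selected libraries for the DNBSEQ platform. Per the labels and the study's methods, the authors discarded poor reads, used HISAT (GRCh38.p12) for the genome and Bowtie2 for the genes. For each gene and sample they deposited an estimated count, an FPKM and a TPM value. Their own comparison (fold changes, p-values and q-values) was not used. Estimated counts are not normalized; FPKM and TPM are scaled by length and depth, and FPKM served only as an alternative for family shares. Of the estimated counts 12.4% were not whole, and they were rounded, since the test had been planned for counts. Symbols of 25 genes that had become dates were restored from Entrez identifiers.

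Genes were filtered with filterByExpr and compared with edgeR 4.0.16 in R 4.3.3 (TMM, quasi-likelihood test, Benjamini-Hochberg over 12951 genes, threshold 0.05). CPM are TMM-scaled, the log2 CPM of profiles used a prior count of 2, and TPM are as deposited. The fit was tested on simulated data. Also run were limma 3.58.1 (log2 of TPM + 1 or + 0.1), DESeq2 1.42.0, edgeR with 2 other scalings, with all genes or those at 10 counts or more throughout, with the replicate number as a block, and without each sample in turn. The p-values measure the spread between these samples. Members, lists and markers were chosen with earlier results of these data known. Named genes were the members, MLST8, from each list up to 4 called genes in each direction whose mean reached 50 counts, and the gene with the nearest profile to each member; other called immediate early genes, MAP2K4, IL6, single marker genes and genes that overlap a member were named after their values were seen. Gene positions are from GENCODE 29 (GRCh38), and promoters from RefSeq (GRCh38.p14). BATF was not analysed here. Some items are not reported here.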

Additional observations from a re-analysis of the deposited data

How the results depend on the processing

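FOSB and FOSL1 were lower in all 14 alternatives, no gene of the 10 changed sign in any, and 4 were lower in DESeq2, limma and both other scalings. Leaving out 1 sample gave 971 to 2692 higher and 850 to 2651 lower genes over all, and 2 to 6 lower and 0 to 1 higher of the 10; the sole higher call was ATF3 without WT replicate 3. For the lists it gave 8 to 12 lower and 0 to 3 higher other immediate early genes, 0 to 6 and 1 to 3 bZIP partners, 1 to 5 and 0 to 1 upstream genes, and 5 to 12 and 4 to 11 targets. With limma on log2(TPM + 1) and log2(TPM + 0.1), lower genes fell to 1134 and 1132 over all, 1 and 1 partner, 2 and 2 upstream genes and 7 and 7 targets, and higher genes were 3 and 4 other immediate early genes, 2 and 2 partners and 2 and 1 upstream genes. Upper quartile scaling gave 2 higher immediate early genes, 2 higher and 2 lower partners, and 2 higher and 2 lower upstream genes. Of all 12951 genes, upper quartile scaling called 2546 higher and 1559 lower, and the 2 limma fits called 2782 and 2764 higher. Higher genes were 51.0% of calls with TMM, 62.0% with upper quartile scaling and 71.0% and 70.9% with limma. The median of all genes was 0.10 with log2(TPM + 0.1); relative to it, FOSL2 and ATF3 moved less than their values on that scale. With the replicate block, 6 of the 10 genes were lower (EGR1 and JUND added), with 3 higher partners and 1 higher upstream gene. That fit called 2261 higher and 2157 lower of all 12951 genes. Same-numbered samples correlated at 0.10, 0.06 and 0.14 in their deviations, not all over 0.1, so the numbers were not taken as pairs; each of the 6 samples correlated best with its own number, a hint from the data alone. Without a filter EGR1 passed (adjusted p = 0.0336, edgeR). From counts not divided by length, FOSL1 was 55.8% of the FOS family in WT and 36.2% in MLST8-KO cells, and JUNB 46.2% and 51.3% of the JUN family. Calls on FOS and FOSB rest on few reads. The causes were not tested.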
